A study of Mus musculus with 19 samples.

Results

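*Pnpla2*, *Lipe*, *Mgll*, *Abhd5*, *G0s2*, *Pnpla3* and *Pnpla8* encode the enzymes that take fatty acids off stored triglyceride, 2 proteins that switch the first of these enzymes on or off, and 2 relatives of that enzyme. They were chosen by name, and all 7 were found once by symbol among the 55573 genes of the table of 7 tissues, the 55487 genes of the brown fat table and the 13756 genes of the inguinal fat table. RNA-Seq was done on 19 mouse libraries. Wild type (WT) C57BL/6J mice on chow diet gave 1 library each of tibialis anterior muscle, heart, liver, white adipose tissue, brown adipose tissue, small intestine and brain. Inguinal white adipose tissue (iWAT) and brown adipose tissue (BAT) came from male, chow-fed, 5-month-old WT and MCK-Musclin mice kept at 8 °C for 1 week, with 3 libraries for each genotype in each tissue. MCK-Musclin mice carry the coding sequence of the muscle-secreted peptide Musclin (*Ostn*) behind the muscle creatine kinase promoter, so the transgene is meant for striated muscle and not for fat, and they had been backcrossed to C57BL/6J. The sources used here do not say whether the sequenced mice came from more than 1 founder, or whether iWAT and BAT came from the same mice. Mice at room temperature were not compared here, so every genotype comparison below is between cold mice.

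Lipolysis is the stepwise release of fatty acids from the triglyceride of the lipid droplet. Adipose triglyceride lipase, the product of *Pnpla2*, removes the first fatty acid, hormone-sensitive lipase (*Lipe*) removes the next from diglyceride, and monoglyceride lipase (*Mgll*) removes the last and frees glycerol. The coactivator ABHD5, also called CGI-58, stimulates adipose triglyceride lipase, and the small protein G0S2 inhibits it. In the cold, noradrenaline acts through beta-adrenergic receptors and protein kinase A on the lipid droplet coat and on hormone-sensitive lipase, and the released fatty acids fuel heat production in brown and beige adipocytes. PNPLA3 is a lipid droplet protein related to adipose triglyceride lipase, and PNPLA8 is a phospholipase A2 of mitochondria and peroxisomes.

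On GRCm38 the genes are spread over 6 chromosomes. *Pnpla2* lies on the plus strand of chromosome 7 from 141455198 to 141460743 and *Lipe* on the minus strand of the same chromosome from 25379527 to 25398710. *Mgll* lies on chromosome 6 (88724412 to 88828360, plus), *Abhd5* on chromosome 9 (122351608 to 122381524, plus) and *G0s2* on chromosome 1 (193272161 to 193273217, minus). *Pnpla3* lies on chromosome 15 (84167837 to 84187236, plus) and *Pnpla8* on chromosome 12 (44221370 to 44322532, plus). Exons of an opposite-strand RNA overlap 918 exonic bases of *Lipe*, 167 of *Mgll*, 950 of *Abhd5* and 91 of *Pnpla8*, a same-strand transcript overlaps 105 bases of *Pnpla3*, and without strand the reads of such overlaps cannot be told apart.

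The sequences most useful for following these genes are the primer pairs that the study designed for 4 of them, since they mark which part of each transcript was targeted. By qPCR the study reported lower *Pnpla2*, *Lipe* and *Mgll* in cultured adipocytes treated with Musclin. It also reported lower lipid metabolism genes in iWAT of cold MCK-Musclin mice. Each primer pair was located on GRCm38 transcripts of the named gene. The *Pnpla8* pair lies in the coding part of exons 9 and 10 of 10 on chromosome 12, from 44308058 to 44311359, and its product on the spliced transcript is 92 bases. The *Pnpla2* pair lies in exons 8 and 9 of 10 on chromosome 7, from 141458963 to 141459233, with the forward primer across the exon junction and a product of 82 bases. The *Lipe* pair lies within coding exon 2 of transcript Lipe-201, from 25388339 to 25388438 of chromosome 7, with a product of 100 bases. The *Mgll* pair lies in coding exons 2 and 3 of chromosome 6, from 88725749 to 88764647, with a product of 149 bases.
Pnpla8 forward: acacgagcctgaagaccaag
Pnpla8 reverse: agaaggcaacaggccatcaa
Pnpla2 forward: gtccttcaccatccgcttgtt
Pnpla2 reverse: gatgctacccgtctgctcttt
Lipe forward: gagacaccagccaacggatac
Lipe reverse: ttttgcggttagaagccacat
Mgll forward: ctccacagaatgttccctacca
Mgll reverse: atcataacggccacagtgttc

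The promoters are shown as a description, and whether their motifs bear on any difference between genotypes was not tested. RefSeq promoter windows of GRCm38.p6 were found for all 7 genes, with a second window each for *Lipe* and *Mgll*, and 7 short motifs were searched on both strands in the 250 bases before each start. The windows of *Pnpla8* and *Pnpla2*, whose differences there had opposite signs, are printed whole in the direction of transcription, with GGGCGG (GC box) and TGACG (the core of the cAMP response element), or their reverse complements, in capitals. The *Pnpla8* window is on the plus strand at chr12:44268904-44269153, inside the span of the gene, and the *Pnpla2* window is on the plus strand at chr7:141454938-141455187.
Pnpla8: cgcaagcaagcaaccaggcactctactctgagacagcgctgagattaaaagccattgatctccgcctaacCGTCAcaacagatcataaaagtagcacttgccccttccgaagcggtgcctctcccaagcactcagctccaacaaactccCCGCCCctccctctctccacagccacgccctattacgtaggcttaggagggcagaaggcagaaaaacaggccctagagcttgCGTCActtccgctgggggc
Pnpla2: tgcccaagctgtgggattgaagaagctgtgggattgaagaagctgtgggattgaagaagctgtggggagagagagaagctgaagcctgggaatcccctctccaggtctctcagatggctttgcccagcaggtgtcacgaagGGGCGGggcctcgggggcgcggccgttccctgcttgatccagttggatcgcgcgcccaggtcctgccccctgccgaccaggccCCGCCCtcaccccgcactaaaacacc
GGGCGG was in a window of each of the 7 genes and in 32.7% of all 32851 windows searched. TGACG was in the windows of *Abhd5*, *G0s2*, *Pnpla3* and *Pnpla8*, in the last of these at 2 places, and in 17.8% of all windows. The full cAMP response element TGACGTCA, which contains TGACG on both strands, was in the window of *Pnpla3* alone among the 7 genes and in 1.55% of all windows. The E-box CACGTG was in a window of *Lipe* and of *Mgll* and in 6.02% of all windows, and AGGTCA, a core of nuclear receptor sites, was in that of *Abhd5* and in 14.0%. The stretch around each of these rarer matches is given with the motif in capitals.
Pnpla3, chr15:84167759-84167788, plus strand: ggggcctcagcTGACGTCAcccgaagacag
Lipe, chr7:25396126-25396153, minus strand: acagggacgacCACGTGagggggcggag
Mgll, chr6:88724357-88724384, plus strand: ggggccgggcaCACGTGgggccccggcg
Abhd5, chr9:122351536-122351563, plus strand: cggcgtcgggcTGACCTtccttaccagt
CCAAT (33.9% of all windows) was found in the window of *Pnpla3* and TATAAA (12.4%) in none of the 7 genes' windows.

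The libraries were checked against their labels before the lipolysis genes were read. Values are FPKM (fragments per length of transcript and per total of mapped fragments), as deposited. The heart, liver, brain and skeletal muscle markers were each highest in the tissue of that label, as were *Vil1* and *Fabp2* in small intestine, whereas the intestinal *Fabp1* was higher in liver. The 8 general adipocyte markers summed to 14416 FPKM in white and 5972 in brown adipose tissue and to at most 230 elsewhere. *Ucp1*, the uncoupling protein of brown fat, was at 467 FPKM in the brown adipose library and is listed at 0 in the white one, and it was at 2778 to 3792 in the 6 BAT libraries. The 10 highest genes made up 48.4 to 51.3% of the summed FPKM in BAT, 52.4% in the brown adipose library and 11.9 to 13.0% in iWAT; the other genes share the remainder. Relative depth, read from the steps of low values, was 0.892 to 1.11 of WT replicate 1 in BAT and is unknown in iWAT. *Ostn* had 37.9, 31.6 and 30.3 FPKM in the MCK-Musclin BAT libraries and is listed at 0 in the 3 WT ones. In iWAT it had 5.17 and 4.21 FPKM in MCK-Musclin replicates 2 and 3 and is listed at 0 in the library labelled MCK-Musclin replicate 1, where the 6 skeletal muscle markers also summed to only 5.95 FPKM, so the log2 differences of the 7 genes in iWAT, and the counts and medians of the lists around them, are also given without that library.

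In FPKM all 7 genes were highest in the 2 fat libraries, for *Pnpla8* by only 1.04-fold in brown fat over tibialis anterior muscle. Their levels in the other tissues set the genes apart from each other. *Pnpla2* had 932 FPKM in brown and 731 in white adipose tissue, then 86.1 in heart, 53.5 in tibialis anterior muscle, 34.0 in small intestine, 25.6 in liver and 6.45 in brain. It ranked 39th among all genes of the brown adipose library and 50th in the white one. *Lipe* had 505 FPKM in white and 388 in brown adipose tissue, then 17.3 in small intestine, 10.98 in heart, 4.59 in liver, 2.97 in tibialis anterior muscle and 2.89 in brain. The step from the lower fat library to the highest other tissue was 8.49-fold for *Pnpla2* and 22.4-fold for *Lipe*. *Mgll*, whose product also degrades an endocannabinoid in brain, had 147 FPKM in white and 53.1 in brown adipose tissue, then 24.6 in brain, 21.7 in liver, 13.6 in heart, 2.62 in small intestine and 1.65 in tibialis anterior muscle. Brain was thus the tissue where the last enzyme of the pathway stood above the first, at 3.81 times the FPKM of *Pnpla2*, against 0.0309 to 0.846 times in the other 6.

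The regulators were spread differently from each other. *G0s2*, the inhibitor, had 460 FPKM in brown and 322 in white adipose tissue, then 71.7 in liver, 44.0 in heart, 34.7 in tibialis anterior muscle, 4.58 in small intestine and 3.74 in brain. In liver it was 2.80 times the level of *Pnpla2*, per length and within that library, whereas the ratio was 0.135 to 0.649 in the other 6 tissues. *Abhd5*, the coactivator, had 38.2 FPKM in white and 15.5 in brown adipose tissue, and between 3.65 in brain and 8.37 in tibialis anterior muscle elsewhere. Relative to *Pnpla2* it was lowest in brown adipose tissue, at 0.0166, and highest in brain, at 0.566.

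*Pnpla3* was the most restricted of the 7, with 78.7 FPKM in white and 21.3 in brown adipose tissue, 2.61 in brain, and 0.343 or less in tibialis anterior muscle, liver, small intestine and heart. *Pnpla8* was the most even. It had 16.5 FPKM in white adipose tissue, then 8.09 in brown adipose tissue, 7.74 in tibialis anterior muscle, 7.28 in liver, 7.04 in heart, 6.32 in brain and 2.83 in small intestine. White and brown fat together held 44.1% of its summed FPKM over the 7 tissues, against 96.9% for *Pnpla3* and 95.8% for *Lipe*.

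With 1 library per tissue there is no replicate spread, and neighbours in these orders cannot be said to differ. The 2 fat libraries exchanged places with the scaling. In FPKM, white adipose tissue was highest for 5 of the 7 genes and brown for *Pnpla2* and *G0s2*, with white at 0.784 and 0.702 times brown. After rescaling each library to the same sum (TPM) white was highest for all 7, with ratios of 1.33 and 1.19 for these 2 genes. Brown adipose tissue then fell below brain, tibialis anterior muscle and liver for *Pnpla8*. After median-ratio scaling white was highest for 3, with *Lipe* at 0.820 times brown and tibialis anterior muscle above both fats for *Pnpla8*. White stood above brown under all 3 scalings for *Mgll*, *Abhd5*, *Pnpla3* and *Pnpla8*. White fat RNA was extracted with a kit and the other tissues with TRIzol, and the part of this in the order was not tested.

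**Figure D1:**
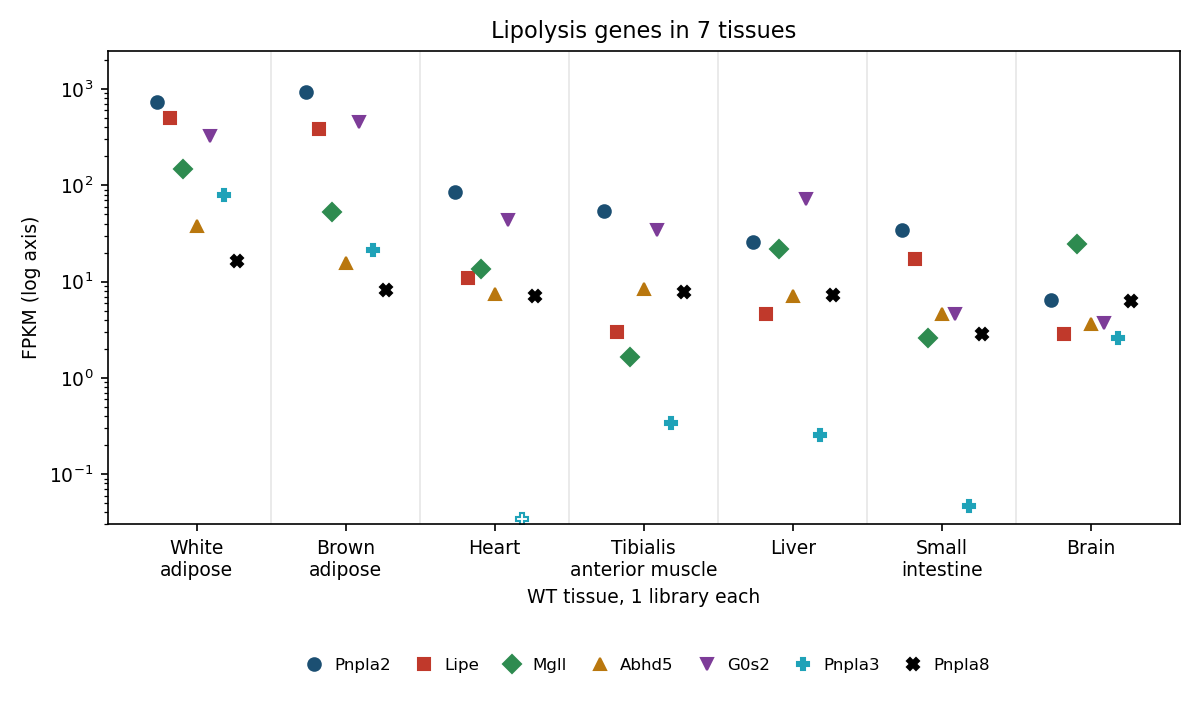
FPKM on a log axis (y) of the 7 lipolysis genes in 7 WT tissues (x), with 1 library per tissue and 1 symbol per gene. All 7 genes were highest in the 2 fat libraries, from 8.09 FPKM (*Pnpla8*, brown) to 932 (*Pnpla2*, brown), and the open symbol at the lower edge is *Pnpla3* in heart, listed at 0.0001 FPKM.

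The genes whose levels most resembled each of the 7 over these tissues were sought among 13522 protein-coding genes by Pearson correlation of log2(FPKM + 1) over the 7 libraries. For *Pnpla2* they were *Ginm1*, *Fabp4* (the adipocyte fatty acid binding protein) and *Spaar*, with r of 0.986, 0.986 and 0.979. For *Lipe* they were *Zfp229*, *Svep1* and *Map7d3* (0.987 to 0.982), for *Mgll* *Peli2*, *Lrrc58* and *Plcg1* (0.983 to 0.962), and for *Abhd5* *Gja4*, *Fzd4* and *Gm49392* (0.986 to 0.974). *G0s2* was closest to *Cbr4*, *Hibch* and *Gpihbp1* (0.985 to 0.981), the last of which holds lipoprotein lipase on capillaries. *Pnpla3* was closest to *Sycp3*, *Ptger3* and *Ankef1* (0.998 to 0.990), of which *Ptger3* encodes a prostaglandin receptor that restrains lipolysis, and *Pnpla8* was closest to *2810006K23Rik*, *Gkap1* and *Thsd1* (0.970 to 0.960). Among the 7 genes themselves r ran from 0.520 for *Lipe* with *Pnpla8* to 0.921 for *Pnpla2* with *Lipe*. All of these points share the 2 fat libraries, and 7 points describe a likeness and no more.

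In iWAT of cold mice, the question was whether the lipolysis genes differed between MCK-Musclin and WT mice. The first enzyme, *Pnpla2*, ranked between 19th and 30th among all genes of an iWAT library. It had 1111, 1214 and 1283 FPKM in WT replicates 1 to 3 and 906, 1021 and 1023 in MCK-Musclin replicates 1 to 3. The MCK-Musclin libraries all lay under the lowest WT library, with means of 1202 ± 86.6 and 983 ± 66.8 (SD, n = 3 each). The log2 difference was -0.29 (standard error 0.116, 95% confidence interval -0.56 to -0.02), with an unadjusted p of 0.0403 and an adjusted p of 0.279 in limma over 12197 genes. Without the library labelled MCK-Musclin replicate 1 it was -0.23, with an unadjusted p of 0.123.

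For the 2 later enzymes the interval of the log2 difference included 0. *Lipe* had 333, 485 and 321 FPKM in WT and 323, 421 and 326 in MCK-Musclin libraries, and the groups overlapped almost fully. Its log2 difference was -0.07 (95% confidence interval -0.52 to 0.37), and without WT replicate 2, the highest of the 6 libraries, it was 0.11. Without the library labelled MCK-Musclin replicate 1 it was -0.0085. *Mgll* had 96.2, 106 and 103 FPKM in WT and 84.3, 100.1 and 72.9 in MCK-Musclin libraries. MCK-Musclin replicate 2 lay within the WT range, the other 2 below it, and the log2 difference was -0.26 (-0.56 to 0.04) with an adjusted p of 0.364. It was -0.25 without the library labelled MCK-Musclin replicate 1, -0.15 without MCK-Musclin replicate 3, the lowest of the 6, and -0.37 without MCK-Musclin replicate 2.

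Of the 2 regulators, *Abhd5* was the tighter. It had 32.1, 34.3 and 30.9 FPKM in WT and 27.5, 26.9 and 30.6 in MCK-Musclin libraries, so that the groups did not overlap but their nearest libraries almost touched. The log2 difference was -0.19 (95% confidence interval -0.41 to 0.03, adjusted p 0.360), and -0.17 without the library labelled MCK-Musclin replicate 1. *G0s2* varied most of all 7, with 205, 440 and 531 FPKM in WT and 186, 288 and 410 in MCK-Musclin libraries. In each genotype the highest library had over 2 times the level of the lowest, the groups overlapped, and the interval of its log2 difference of -0.37 ran from -1.32 to 0.57. Single libraries moved this value widely, from -0.08 without the library labelled MCK-Musclin replicate 1 to -0.79 without WT replicate 1 (unadjusted p 0.0474).

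Of the relatives, *Pnpla3* had 56.96, 32.2 and 40.7 FPKM in WT and 33.6, 29.9 and 41.3 in MCK-Musclin libraries. The groups overlapped and the log2 difference was -0.28 (95% confidence interval -0.78 to 0.23). Leaving out 1 library at a time it ran from -0.06 without WT replicate 1, the highest of the 6, to -0.46 without WT replicate 2, and was -0.25 without the library labelled MCK-Musclin replicate 1. *Pnpla8* had 11.3, 11.01 and 11.8 FPKM in WT and 9.80, 7.80 and 8.03 in MCK-Musclin libraries. The groups were apart, with means of 11.4 ± 0.391 and 8.54 ± 1.10 (SD, n = 3 each). The log2 difference was -0.38 (standard error 0.112, 95% confidence interval -0.64 to -0.12, unadjusted p 0.0107, adjusted p 0.184), and -0.47 without the library labelled MCK-Musclin replicate 1.

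Counted together, the log2 difference in iWAT was below 0 for 7 of the 7 genes, or for 5 of 7 when each library was centred on the adipocyte markers, whereas 38.7% of all 12197 genes tested had a difference below 0. Their median difference was -0.28, against 0.06 for all genes tested. An unadjusted p under 0.05 with a lower level was found for 2 of the 7, *Pnpla2* and *Pnpla8*, and for 3.44% of all genes. That count was 4, with *Abhd5* and *Mgll* added, after rescaling to TPM, median-ratio scaling or quantile normalization, and 0 when centred on the adipocyte markers. It was 3, with *G0s2* added, without WT replicate 1 or with the replicate number as a block, and 2, *Mgll* and *Pnpla8*, without MCK-Musclin replicate 2. It was 1, *Pnpla8*, without WT replicate 2 or 3, without MCK-Musclin replicate 1 or 3, or with no filter on low values. The background moved as well. The median of all genes was 0.02 as TPM, -0.01 after the other 2 scalings and 0.27 when centred. All genes with an unadjusted p under 0.05 in either direction numbered 2012 in the main fit and 1848 to 1863 under the 3 scalings. They numbered 4258 when centred and 1395 to 2153 in the other settings named. Those with a lower level were not counted apart there. For 3 of the 7, namely *Pnpla2*, *Abhd5* and *Pnpla8*, the highest MCK-Musclin library was still under the lowest WT library, as for 5.44% of all genes. None of the 7 met the cutoff the study used for iWAT, an unadjusted p under 0.05 and an absolute log2 difference above 0.5, which 5.94% of all genes met. In limma no gene of this comparison had an adjusted p under 0.05 (0% of 12197), although 16.5% had an unadjusted p under 0.05. Without the library labelled MCK-Musclin replicate 1 the difference was still below 0 for 7 of 7, with a median of -0.23.

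Markers of other cells moved with these values. All 8 B and T cell markers were above every WT library in every MCK-Musclin iWAT library (17.9% of all genes), 7 of 8 met the cutoff as higher (5.04%), and their sum was 208 to 348 FPKM in WT and 411 to 507 in MCK-Musclin libraries. All 8 general adipocyte markers had a difference below 0, with sums of 15031 to 15998 in WT and 13530 to 15351 in MCK-Musclin libraries and a median difference of -0.15. The 6 skeletal muscle markers summed to 7.80 to 2139 FPKM in WT and to 5.95 to 87.8 in MCK-Musclin libraries. Of 5 macrophage markers 4 had a positive difference (median 0.08), and *Cd68* met the cutoff as higher (0.68). Their sum was 135 to 165 FPKM in WT and 142 to 224 in MCK-Musclin libraries. Without the library labelled MCK-Musclin replicate 1, 8 of 8 B and T cell markers met the cutoff as higher (5.74% of all genes), and the median difference of the adipocyte markers was -0.09, with 7 of 8 below 0. The macrophage markers then had a median difference of -0.006, with 3 of 5 below 0 and none at the cutoff. None of these lists had a member at 0 in every library, and their part in the lipolysis values was not tested. In bulk tissue, fewer cells of a type and less RNA per cell cannot be told apart.

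**Figure D2:**
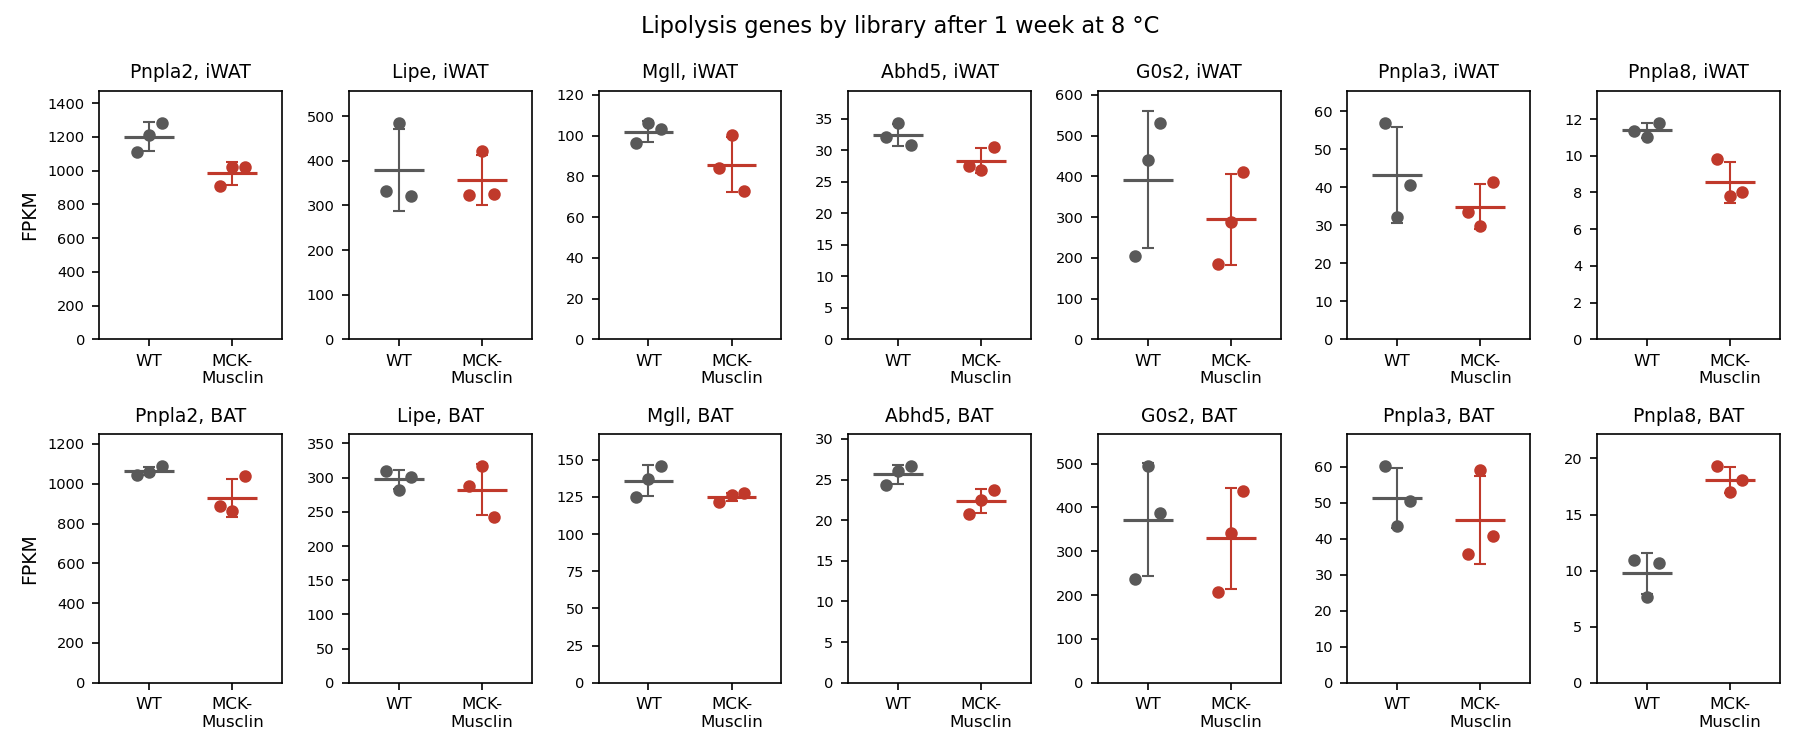
FPKM (y, from 0) of each lipolysis gene by genotype (x) in iWAT (upper row) and BAT (lower row) of cold mice, with 1 point per library, a bar at the mean and whiskers of 1 SD (n = 3 each). *Pnpla8* is the gene whose groups were apart in opposite directions, with 7.80 to 9.80 FPKM below 11.01 to 11.8 in iWAT and 17.0 to 19.3 above 7.67 to 10.9 in BAT.

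The same comparison was made in BAT, the tissue with the denser mitochondria and the higher heat output. *Pnpla2* had 1045, 1061 and 1087 FPKM in WT and 886, 861 and 1040 in MCK-Musclin libraries. The groups were apart, with MCK-Musclin replicate 3 only just below the lowest WT library. Its log2 difference was -0.20 (standard error 0.0900, 95% confidence interval -0.41 to 0.01, unadjusted p 0.0590, adjusted p 0.968 over 10893 genes). *Lipe* had 310, 282 and 301 FPKM in WT and 288, 316 and 243 in MCK-Musclin libraries, which overlapped, and its log2 difference was -0.08 (-0.34 to 0.17). *Mgll* had 125, 137 and 145 FPKM in WT and 122, 126 and 127 in MCK-Musclin libraries. WT replicate 1 lay among the MCK-Musclin libraries, and the log2 difference was -0.12 (-0.31 to 0.08).

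*Abhd5* had 24.3, 26.0 and 26.6 FPKM in WT and 20.8, 22.5 and 23.8 in MCK-Musclin BAT libraries. As in iWAT the groups did not overlap, and the log2 difference was -0.19 (95% confidence interval -0.41 to 0.03, adjusted p 0.968). Within a library *Abhd5* kept close to a fixed share of *Pnpla2*, at 0.0233 to 0.0245 in WT and 0.0229 to 0.0261 in MCK-Musclin BAT, and at 0.0241 to 0.0289 and 0.0264 to 0.0303 in iWAT. This was not particular to *Abhd5*. The ratio of *Mgll* to *Pnpla2* was 0.1197 to 0.1339 in WT and 0.1224 to 0.1464 in MCK-Musclin BAT. In iWAT it was 0.08065 to 0.0875 and 0.0713 to 0.09807. *G0s2* had 236, 494 and 387 FPKM in WT and 208, 343 and 437 in MCK-Musclin BAT libraries, again with a wide overlap, and a log2 difference of -0.18 (-0.95 to 0.59). Its ratio to *Pnpla2* ran from 0.226 to 0.465 in WT and from 0.235 to 0.421 in MCK-Musclin BAT. *Pnpla3* had 60.1, 43.4 and 50.5 FPKM in WT and 35.7, 59.1 and 40.9 in MCK-Musclin libraries, and with this overlap the log2 difference was -0.20 (-0.66 to 0.26).

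*Pnpla8* was higher in MCK-Musclin than in WT mice in BAT. It had 10.9, 7.67 and 10.7 FPKM in WT replicates 1 to 3 and 19.3, 17.0 and 18.0 in MCK-Musclin replicates 1 to 3. The lowest MCK-Musclin library thus stood well above the highest WT library, with means of 9.76 ± 1.81 and 18.1 ± 1.14 (SD, n = 3 each). The log2 difference was 0.84 (standard error 0.143, 95% confidence interval 0.51 to 1.18). Its unadjusted p of 0.000472 was the 4th smallest of the 10893 genes, and its adjusted p was 0.839. Leaving out 1 library at a time kept the difference between 0.69 and 0.92. The opposite-strand RNA that overlaps 91 of the 14174 exonic bases of *Pnpla8*, *Gm47096*, had 0.0579 to 0.276 FPKM in the BAT libraries.

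*Pnpla8* was the gene among the 7 that met the cutoff the study used for BAT, an unadjusted p under 0.05 and an absolute log2 difference above 0.3. That cutoff was met by 4% of all genes tested, and by 1.85% as higher. The difference was below 0 for the other 6 genes and for 52.3% of all genes, and the median over the 7 was -0.18 against -0.01 over all genes. Centred on the adipocyte markers the count below 0 was 4 of 7, and without WT replicate 2 or MCK-Musclin replicate 1 or 3 it was 5 of 7. The MCK-Musclin libraries lay wholly under the WT range for 2 of the 7 (5.63% of all genes), *Pnpla2* and *Abhd5*, and wholly over it for 1 (4.38%), *Pnpla8*. Only 1 gene of the table, not among the 7, had an adjusted p under 0.05 in limma (0.00918%).

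Skeletal muscle markers moved with genotype in BAT. All 6 had a positive difference, against 5200 of all 10893 genes tested, and 5 of 6 met the cutoff as higher (1.85% of all genes). The 6 markers summed to 263 to 415 FPKM in WT and 431 to 964 in MCK-Musclin libraries. The 4 macrophage markers tested also had positive differences, with a median of 0.40 and *Csf1r* past the cutoff, and B and T cell markers summed to at most 3.56 FPKM. The part of the muscle and macrophage markers in the *Pnpla8* values was not tested.

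The effects in the 2 tissues were compared in a fit of all 12 libraries to 9757 genes. The fit took the libraries as independent, which may not hold, since iWAT and BAT may have come from the same mice. For *Pnpla8* the BAT effect exceeded the iWAT effect by 1.22 on the log2 scale (standard error 0.184, 95% confidence interval 0.82 to 1.62). This had the smallest unadjusted p of all genes tested, 2.81e-05, but the adjusted p was 0.275. Without the library labelled MCK-Musclin replicate 1 of iWAT the difference was 1.315 and the adjusted p 0.0351. With all 12 libraries no gene had an adjusted p under 0.05 (0%), and 10.1% had an unadjusted p under 0.05. For the other 6 genes the difference between tissues was from -0.01 to 0.20 with intervals that included 0, the narrowest being -0.27 to 0.27 for *Abhd5* and the widest -1.09 to 1.48 for *G0s2*.

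**Figure D3:**
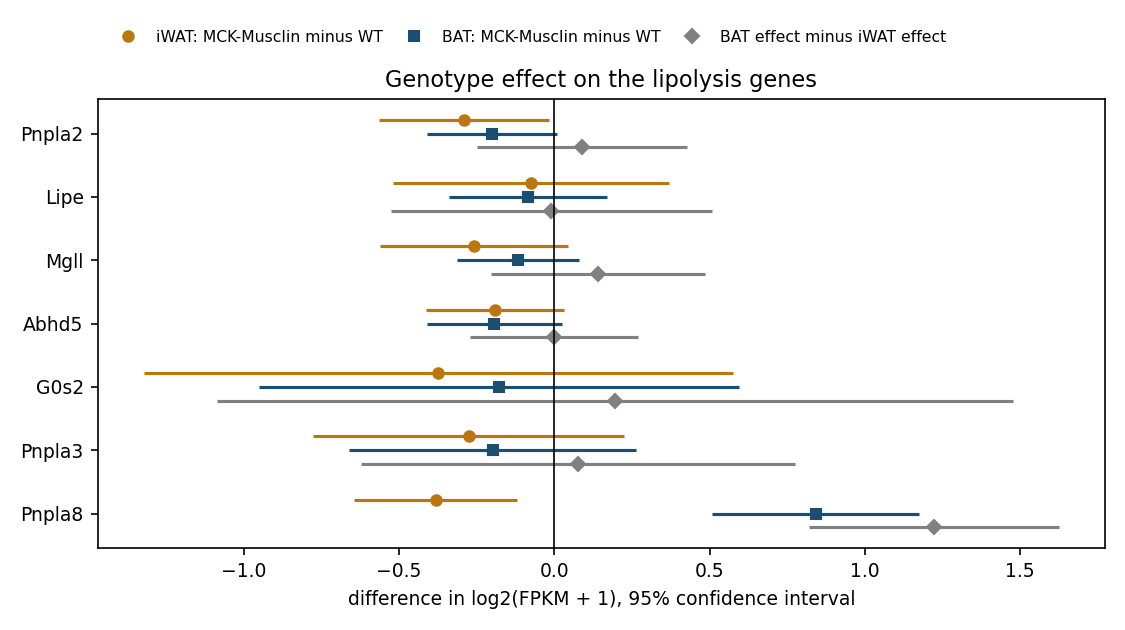
Difference in log2(FPKM + 1) (x) for each lipolysis gene (y), with 95% confidence intervals, as MCK-Musclin minus WT in iWAT and in BAT and as the BAT effect minus the iWAT effect. *Pnpla8* sits at -0.38 in iWAT, 0.84 in BAT and 1.22 for the difference, while the other 6 genes lie between -0.37 and -0.07 in both tissues.

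Around the 7 genes, 5 lists of the wider pathway were read in iWAT: receptors and kinase subunits that stimulate lipolysis, receptors and enzymes that restrain it, lipid droplet coat proteins, other lipases, and genes that handle the products. Of 13 stimulatory genes tested, 8 had a difference below 0 (median -0.18) and 2 met the cutoff as lower (0.902% of all genes). These were *Adrb1*, a beta-adrenergic receptor, with 4.37, 2.46 and 3.28 FPKM in WT and 1.10, 1.47 and 1.08 in MCK-Musclin libraries (log2 difference -0.96, adjusted p 0.143), and *Adcy3*, an adenylate cyclase (-0.77). *Adrb3*, the main beta-adrenergic receptor of mouse fat, had a difference of 0.05. *Prkar2b*, the regulatory subunit of protein kinase A that prevails in fat, had 260, 303 and 302 FPKM in WT and 215, 199.9 and 217 in MCK-Musclin libraries, a log2 difference of -0.45 that did not reach 0.5. The restraining list had 8 of 12 genes below 0 (median -0.14) and none at the cutoff, with *Adora1*, the adenosine receptor of fat, at -0.44 and the phosphodiesterase *Pde3b* at -0.27.

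In the lipid droplet coat list 7 of 8 genes had a difference below 0 in iWAT (median -0.26). *Cidea*, which fuses droplets in brown and beige adipocytes, met the cutoff with 290 to 427 FPKM in WT and 70.2 to 294 in MCK-Musclin libraries, a log2 difference of -1.45 with overlapping groups. *Plin1*, the coat protein that holds the coactivator at rest, had -0.14 and *Plin5*, which binds it in oxidative tissue, -0.80 (unadjusted p 0.0528). Of 10 other lipases 7 were below 0 (median -0.15). *Ddhd2*, a triglyceride lipase better known from brain, met the cutoff at -0.51, with 19.5, 16.5 and 16.2 FPKM in WT and 13.2, 12.01 and 10.7 in MCK-Musclin libraries. Of 10 product genes 8 were below 0 (median -0.33), and 3 met the cutoff: *Gpd1* (-0.73) and *Gk* (-0.98), which make glycerol phosphate, and *Cpt1b* (-1.44), which takes fatty acids into mitochondria. The *Cpt1b* groups overlapped, with 7.51, 10.7 and 15.3 FPKM in WT and 7.99, 3.34 and 1.10 in MCK-Musclin libraries. Skeletal muscle markers summed to 7.80, 403 and 2139 FPKM in the same WT libraries and to 5.95, 78.7 and 87.8 in the MCK-Musclin ones. The part of muscle RNA in the *Cpt1b* values was not tested. *Cidea* and *Cpt1b* are enriched in brown and beige fat, and all 8 brown and beige markers had a negative difference in iWAT (median -1.37), summing to 573 to 1068 FPKM in WT and 119 to 644 in MCK-Musclin libraries. Without the library labelled MCK-Musclin replicate 1, which was chosen for these lists after seeing the data, the medians were -0.22 for the stimulatory and the restraining list, -0.31 for the coat list, -0.16 for the other lipases, -0.39 for the product genes and -2.00 for the brown and beige markers. The genes named above as past the cutoff were past it there too (1.46% of all genes as lower), as were *Plin2* and *Plin5* (-1.17) of the coat list and *Dgat2* of the product list.

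In BAT the medians of the same lists lay between -0.05 and 0.04. Of the stimulatory genes 6 of 12 had a difference below 0 (median 0.04), of the restraining genes 8 of 11 (-0.04), of the coat genes 5 of 8 (-0.02), of the other lipases 5 of 11 (0.04) and of the product genes 6 of 10 (-0.05). Over these lists, of 12, 11, 8, 11 and 10 genes tested, 2 genes met the cutoff, which 4% of all genes tested met. *Pnpla7*, a lysophospholipase of the same family as *Pnpla8*, had 2.50, 2.78 and 2.43 FPKM in WT and 4.85, 3.09 and 4.999 in MCK-Musclin libraries (log2 difference 0.55, adjusted p 0.968). *Dgat2*, which makes triglyceride, was lower at -0.31 (2.15% of all genes met the cutoff as lower). *Cidec*, the droplet-fusing protein of white fat, had 579 to 609 FPKM in WT and 474 to 526 in MCK-Musclin libraries, and its log2 difference of -0.26 did not reach 0.3.

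**Figure D4:**
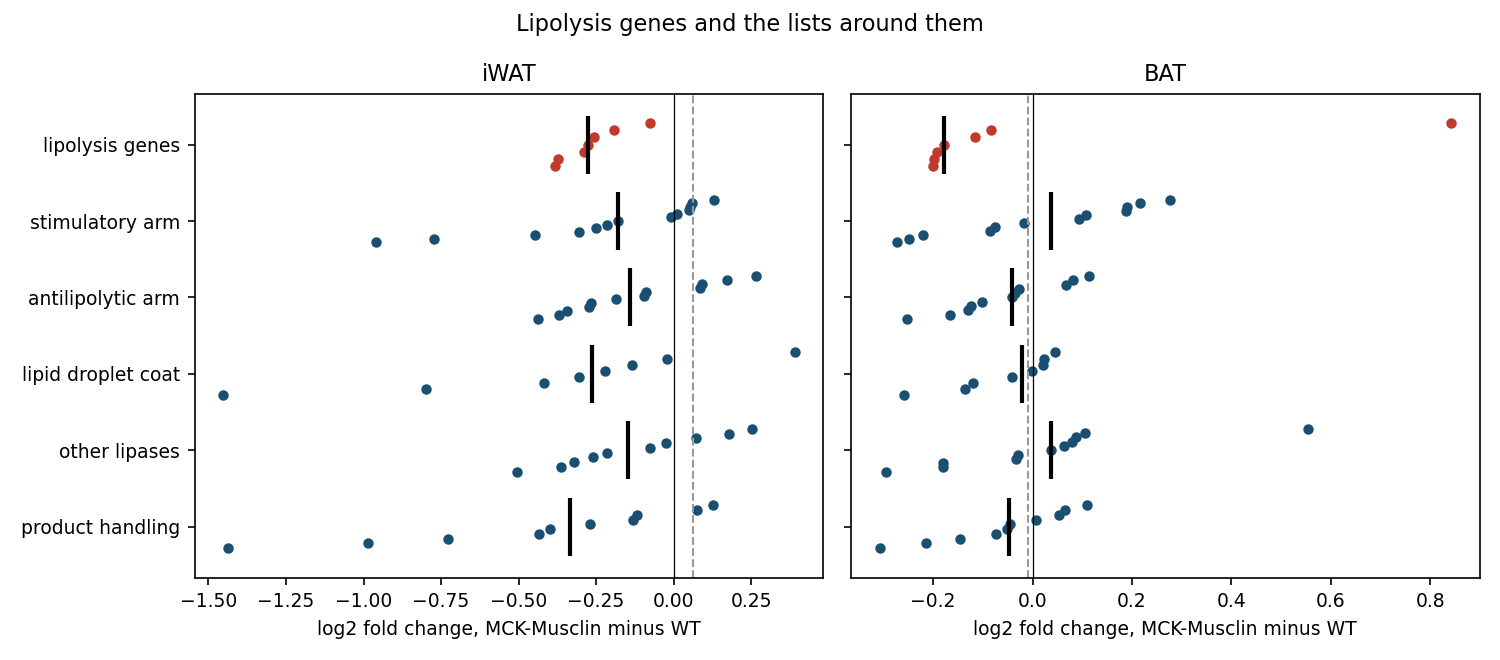
Log2 fold change, MCK-Musclin minus WT (x), of each tested gene of the lipolysis genes and of 5 lists around them (y) in iWAT and BAT, with a bar at each list's median and a dashed line at the median of all genes tested (0.06 and -0.01). In iWAT the medians of the 6 lists lie between -0.33 and -0.14, and in BAT those of the 5 surrounding lists lie between -0.05 and 0.04, with *Pnpla8* and *Pnpla7* to the right.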

How the data were processed

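The authors trimmed reads with fastp, filtered them with Bowtie2 and aligned them with HISAT2 2.1.0 to GRCm38 (mm10) without strand. They deposited FPKM per gene, 1 column per library, in 3 tables that were kept apart. The paper names StringTie for the FPKM, whereas the sample records list Cuffdiff 2.1.137, so the tool that made these values is uncertain. How transcripts were summed to a gene and how reads were assigned to isoforms was not tested. The iWAT table lists fewer genes, by a filter not given in the sources used here. Its columns of the authors' own comparison (group means, fold change, p-value and FDR) were not used, and no counts were used here. Lines that repeat a gene with identical values (287 in each of 2 tables) were read once. In iWAT and BAT, limma 3.58.1 (R 4.3.3) was fitted to log2(FPKM + 1) of genes with a mean of at least 1 FPKM, with a trend in eBayes and Benjamini-Hochberg adjustment over all of them. A fold change on this scale understates that of low genes. The study tested counts, so the test here differs from its own. The 7 genes were always named, and others by their place in the lists and at the cutoff, with *Adrb3*, *Prkar2b*, *Adora1*, *Pde3b*, *Plin1*, *Plin5*, *Cidec* and *Csf1r* named after their values were seen. The genes, lists and tests were chosen with earlier results of these data known. The 3 replicates of a group are called biological by the study. The script was tested on simulated data. Alternatives were other pseudocounts, filters, scalings, variance settings, weights, a replicate block and leaving out each library.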

Additional observations from a re-analysis of the deposited data

Results flagged for a closer look

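The genotype effect on *Pnpla8* went in opposite directions in the 2 fats. It was flagged because the MCK-Musclin libraries lay wholly over the WT range in BAT and wholly under it in iWAT. The first was so for 4.38% of all genes tested in BAT and the second for 5.44% in iWAT. How many of all genes met both was not counted. The difference of the 2 log2 effects was 1.22, with an adjusted p of 0.275 in limma over 9757 genes, so it did not pass the test. It was between 1.07 and 1.34 in all 24 other settings, and the adjusted p was under 0.05 in 1 of them, 0.0351 without the library labelled MCK-Musclin replicate 1 of iWAT.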

How the results depend on the processing

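The BAT and iWAT differences of *Pnpla8*, *Pnpla2* and *Pnpla3* kept their direction under every alternative tried. So did those of *Mgll* and *G0s2* in iWAT and of *Abhd5* in BAT. With libraries centred on the adipocyte markers, which moved the median of all genes to 0.27 in iWAT and 0.11 in BAT, the log2 differences of *Lipe* (0.134) and *Abhd5* (0.0171) in iWAT and of *Lipe* (0.0356) and *Mgll* (0.00301) in BAT turned positive. Leaving out 1 library at a time, *Lipe* ran from -0.199 to 0.115 in iWAT and from -0.170 to 0.0203 in BAT, and *G0s2* in BAT from -0.473 to 0.120, turning positive without WT replicate 2 of iWAT, MCK-Musclin replicate 3 of BAT, and WT replicate 2 or MCK-Musclin replicate 1 of BAT. Genes of the 7 at the cutoff numbered 0 to 1 in iWAT and 1 to 2 in BAT when 1 library was left out, with *G0s2* reaching it without WT replicate 1 of iWAT and *Pnpla3* without MCK-Musclin replicate 2 of BAT, and 1 in iWAT at a log2 cutoff of 0.3. Without WT replicate 1 of iWAT 213 of 12216 genes were lower and 844 higher at the cutoff. Without MCK-Musclin replicate 2 of BAT 301 of 10899 were lower and 280 higher, so all genes gained calls there too. All genes were not counted at 0.3 in iWAT. Genes of the 7 that differed between tissues numbered 0 to 1, and genes of the 7 with white fat as the highest tissue numbered 3 under median-ratio scaling. Over all genes the cutoff was met by 725 in iWAT, and by 1927 when centred, where 1286 had an adjusted p under 0.05, and by 436 in BAT, or 216 among genes with at least 5 FPKM. In iWAT 615 were higher and 110 lower at the cutoff, against 430 and 185 after median-ratio scaling, 426 and 181 after quantile normalization, 605 and 201 as TPM and 1900 and 27 when centred, and in BAT 202 and 234, against 239 and 189 as TPM and 359 and 60 when centred. Adjusted p under 0.05 was met by 86 genes without WT replicate 1 of iWAT, and in BAT by 1, or 2 to 4 without some libraries. The sources used here do not say whether same-numbered replicates of the 2 genotypes belong together. In iWAT the correlations of their deviations were 0.235, 0.0615 and 0.107, against -0.180 to 0.0702 for unlike numbers. In BAT they were -0.0951, -0.00463 and 0.00937, against -0.0842 to 0.0795. Not every library correlated best with its own number, and whether same-numbered libraries share a batch was not tested. With the replicate block 774 genes met the cutoff in iWAT and 460 in BAT, the unadjusted p was 0.0188 for *Pnpla8* in iWAT and 0.000694 in BAT, no gene of the 7 changed its side of the cutoff, and *G0s2* in iWAT had an unadjusted p of 0.0315, so that 3 of the 7 rather than 2 were under 0.05. The causes were not tested.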
